A study of Mus musculus with 15 samples.

Results

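The genes described here are 10 neuropeptide precursors, Nts, Npy, Sst, Vip, Cck, Penk, Pdyn, Tac1, Crh and Cartpt, taken by symbol from the 24498 genes of an RNA-seq count table on mouse hippocampal neurons grown in primary culture. All 10 were in the table. Nts was chosen by its acetate log2 fold, the largest rise in these libraries, so its values are given as a description with no test. The other genes were listed as well-known peptide precursors of forebrain neurons, with earlier results of these data known. A filter on low counts left 15075 genes for testing, among them 9 of the 10 precursors, all but Vip.

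The neurons were cultured for 7 days and then treated for 24 h. All 15 libraries come from the same kind of culture in neurobasal medium with B27 supplement, and 4 groups were made by crossing acetate with an inhibitor of ACSS2, the enzyme that makes acetyl-CoA from acetate. Cultures with the DMSO vehicle of the inhibitor received medium alone (DMSO vehicle, 4 libraries) or 5 mM acetate (DMSO acetate, 4 libraries), and cultures with 20 uM ACSS2 inhibitor received medium alone (inhibitor vehicle, 3 libraries) or 5 mM acetate (inhibitor acetate, 4 libraries). The labels name a neuronal core facility as the source of the plated cells and do not say whether replicates were separate cultures or animals, so each p-value measures the spread between these libraries, which may be technical.

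A neuropeptide is made as a longer precursor protein that enters the secretory pathway, is cut by prohormone convertases inside dense-core vesicles, and is released on strong or repeated firing to act on G-protein-coupled receptors. In the hippocampus most precursor genes mark particular neurons: Sst, Npy, Vip and Cck mark classes of GABAergic interneurons, Cck is also transcribed in many pyramidal cells, and Pdyn and Penk in granule cells. Many of these genes are textbook targets of activity and cAMP signalling, which act through the cAMP response element (CRE) bound by CREB and through the AP-1 element bound by Fos and Jun proteins.

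The upstream sequences are shown first because they differ between the genes in these elements. RefSeq windows of GRCm38.p6 (the mm10 assembly) with 250 bases before an annotated start were at hand for 8 of the 10 genes, in 9 windows since Pdyn has 2, and not for Penk or Crh. They were searched on both strands for the full CRE TGACGTCA, for that word with at most 1 mismatch, for its core TGACG (which the full word contains) and for the AP-1 word TGANTCA. The full CRE lay in the windows of Sst (start of the match at base -48, counted from the annotated start) and Cartpt (-112), each a single match that counts as 2 core words, and in 1.555% of 32536 promoters of the same length. With 1 mismatch allowed, which 10.58% of promoters satisfied, Vip (-79) and Nts (-67) also had a match. The AP-1 word was found in Nts alone among these genes (-207), against 6.728% of promoters. Core words numbered 2 in Tac1, Sst and Cartpt, 1 in Vip, Nts and Cck, and 0 in Npy and Pdyn, and 17.85% of promoters had one. The CRE matches of Sst, Cartpt and Nts lie before the RefSeq start but inside exons that GENCODE M21 places further upstream, so all 8 matched bases are exonic in that annotation, while the Vip match and the AP-1 word of Nts lie outside its exons. The matches are printed 5′ to 3′ on the strand of the gene, with the matched word in capitals.
Sst, chr16:23890874-23890903, minus strand: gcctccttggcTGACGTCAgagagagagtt
Cartpt, chr13:99900777-99900806, minus strand: ccggcgggcatTGACGTCAaacggcagcgg
Vip, chr10:5639128-5639157, plus strand: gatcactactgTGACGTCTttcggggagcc
Nts (CRE with 1 mismatch), chr10:102490467-102490496, minus strand: ctgtgtagccaTGACATCAtcctcctgctc
Nts (AP-1), chr10:102490607-102490636, minus strand: aactctttctgTGAGTCAgaaatcctgagc

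Nts, Cck and Pdyn had the widest changes with acetate, and their upstream stretches follow, 182 bases for Nts and 250 bases each for Cck and Pdyn (the upstream of its 2 windows). Capitals mark a CRE with at most 1 mismatch or an AP-1 word. Cck and Pdyn held no full or 1-mismatch CRE and no AP-1 word in these windows. A match is a run of letters, not a measured binding site.
Nts, chr10:102490487-102490668, minus strand: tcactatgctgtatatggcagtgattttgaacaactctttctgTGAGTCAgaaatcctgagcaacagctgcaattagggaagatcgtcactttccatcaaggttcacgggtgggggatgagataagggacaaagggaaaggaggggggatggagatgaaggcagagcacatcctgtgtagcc
Cck, chr9:121495695-121495944, minus strand: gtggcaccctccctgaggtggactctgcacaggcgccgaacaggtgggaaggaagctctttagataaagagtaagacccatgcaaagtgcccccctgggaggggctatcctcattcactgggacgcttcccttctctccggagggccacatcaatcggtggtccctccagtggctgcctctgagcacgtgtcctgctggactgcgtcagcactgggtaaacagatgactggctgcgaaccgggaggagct
Pdyn, chr2:129699939-129700188, minus strand: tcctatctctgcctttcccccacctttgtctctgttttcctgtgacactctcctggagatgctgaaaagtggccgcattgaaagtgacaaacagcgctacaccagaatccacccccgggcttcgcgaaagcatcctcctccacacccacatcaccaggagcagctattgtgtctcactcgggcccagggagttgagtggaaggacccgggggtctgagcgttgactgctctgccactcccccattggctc

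Counts assigned to genes ranged from 19688231 to 39234799 per library, so 1 count was worth 0.0277 to 0.0541 CPM (the count scaled to library size, with edgeR's TMM factors). No pair of libraries in a group agreed within sampling noise. A pair of libraries without acetate stood apart from their groups: markers of microglia, the brain's resident macrophages, had a mean log2 CPM of 2.67 in DMSO vehicle 1 and -0.43 in inhibitor vehicle 2, against 4.42 to 5.11 in the other 5 vehicle libraries. The 8 acetate libraries lay between -0.05 and 1.43. All 14 tested microglia markers of 15 listed fell with acetate both without and with the inhibitor, and the summed level of the list went from 177 to 820 CPM in DMSO vehicle to 55.2 to 79.1 CPM in DMSO acetate, and from 43.1 to 694 CPM in inhibitor vehicle to 47.6 to 94.8 CPM in inhibitor acetate. Markers of other non-neuronal cells that fell without and with the inhibitor numbered 10 and 10 of 12 tested for meninges, 11 and 8 of 13 for oligodendrocytes, 7 and 6 of 10 for vessels, 7 and 8 of 9 for choroid plexus and 8 and 6 of 14 for astrocytes. The summed level of the oligodendrocyte list, in contrast, had a higher median with acetate. That median went from 431 to 839 CPM without the inhibitor and from 317 to 768 CPM with it. The ranges overlapped in both arms, at 342 to 885 against 708 to 991 CPM and 269 to 1095 against 439 to 1101 CPM. The change in this sum was not tested. Pan-neuronal markers rose, with a mean log2 CPM of 7.83 ± 0.22 with DMSO vehicle and 8.47 ± 0.06 with DMSO acetate (SD, n = 4 each). Of these markers 11 of 14 rose without the inhibitor and 10 of 14 with it. Because these are bulk libraries, fewer cells of a type and less RNA per cell cannot be told apart, and the part that this shift in markers has in the precursor values was not tested. Values without the 2 libraries that stood apart are given beside each result that turns on them.

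Levels of different genes are compared per kilobase of exon, using GENCODE M21 exon lengths. In DMSO vehicle cultures Sst was the most abundant precursor at 285 ± 57.2 CPM per kb (SD, n = 4), followed by Npy at 92.5 ± 19.1, Cck at 58.0 ± 35.8, Pdyn at 14.6 ± 4.09, Cartpt at 11.3 ± 5.34, Penk at 5.98 ± 2.0 and Tac1 at 2.95 ± 0.814. Crh at 0.405 ± 0.105, Nts at 0.398 ± 0.181 and Vip at 0.0485 ± 0.0514 CPM per kb were near the bottom of what these libraries can count. The library ranges of Npy and Cck overlapped, as did those of Pdyn and Cartpt, Cartpt and Penk, Penk and Tac1, and Crh and Nts, so the order within each pair is not larger than the spread. With acetate and no inhibitor Cck moved ahead of Npy (217 ± 31.8 against 100 ± 11.1 CPM per kb, n = 4 each), Nts went from place 9 to place 5 at 5.10 ± 0.677, and Pdyn went from place 4 to place 8 at 2.57 ± 0.179. Sst kept the first place in all 4 groups, with 50.6% to 64.0% of the summed level of the 10 precursors per kb in each library.

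**Figure D1:**
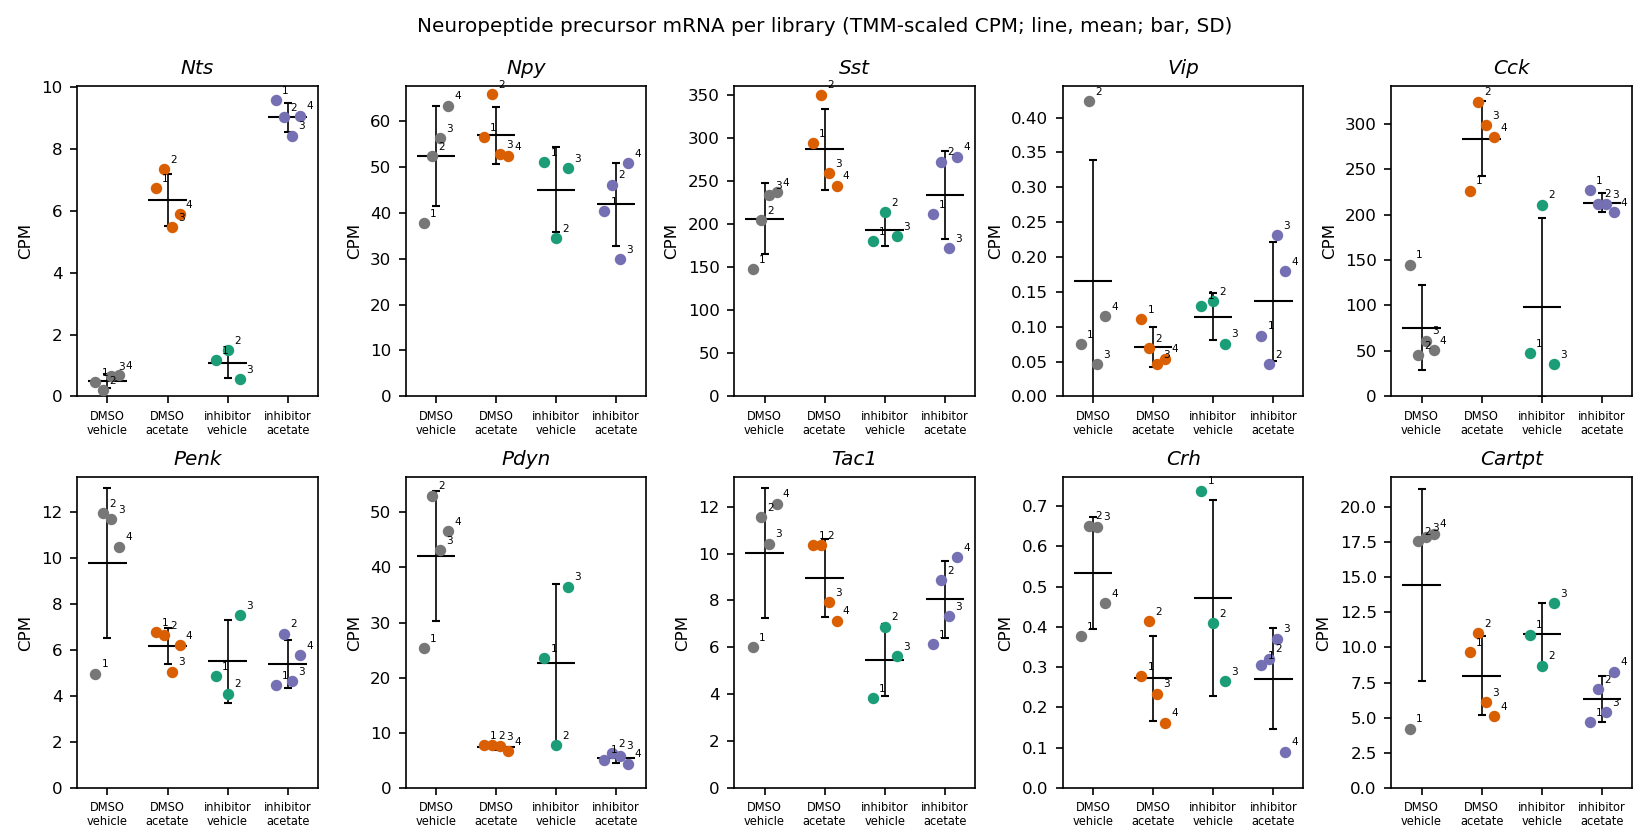
TMM-scaled CPM (vertical axes, each starting at 0) of the 10 precursors in every library of the 4 groups, with points numbered by replicate, a line at the group mean and a bar for the SD; the SD bars of Vip in DMSO vehicle and of Cck in inhibitor vehicle reach below 0 and end at the axis. Nts and Pdyn separate the acetate libraries from the vehicle libraries in both inhibitor arms, and Cck, Pdyn and Cartpt show 1 library of DMSO vehicle (replicate 1) or inhibitor vehicle (replicate 2) away from the rest of its group.

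Nts, on chromosome 10 (102481756 to 102490486, minus strand), encodes the precursor of neurotensin and neuromedin N, peptides that act on the receptors Ntsr1 and Ntsr2. Its level in the DMSO vehicle libraries 1 to 4 was 0.451, 0.196, 0.649 and 0.689 CPM, and in the DMSO acetate libraries 6.74, 7.36, 5.48 and 5.89 CPM. In the inhibitor vehicle libraries 1 to 3 it was 1.17, 1.5 and 0.567 CPM, and in the inhibitor acetate libraries 9.58, 9.04, 8.44 and 9.09 CPM. Every acetate library was above every vehicle library in both arms. The vehicle values rest on 6 to 33 counts per library and the acetate values on 109 to 243.

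The log2 fold of Nts with acetate was 3.70 (SE 0.30), or 13.0-fold, without the inhibitor and 3.07 (SE 0.32), or 8.42-fold, with it. The rule chose Nts for this value, which ranked 1 of 15075 genes in both arms, so neither fold was tested. The difference between both log2 folds, -0.63 (SE 0.43), rests on the same contrasts and was not tested either. Among the 10 precursors Cck came next, at rank 30 without the inhibitor and 152 with it. In DMSO vehicle 1 and inhibitor vehicle 2, the libraries low in microglia markers, Nts was 0.451 and 1.5 CPM, below every acetate library. The second value was the highest among the vehicle libraries. Since Nts was chosen for its rise with acetate, this separation is a description.

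The inhibitor comparisons of Nts share every one of these libraries with the folds it was chosen on, so they too are given with no test. Without acetate, Nts was 0.496 ± 0.226 CPM (SD, n = 4) with DMSO and 1.08 ± 0.475 CPM (n = 3) with the inhibitor, a log2 fold of 1.13. The groups overlapped, since inhibitor vehicle 3 at 0.567 CPM lay below 2 of the DMSO vehicle libraries. That fold ranged from 0.82 without inhibitor vehicle 2 to 1.45 without inhibitor vehicle 3. With acetate, all 4 inhibitor libraries were above all 4 DMSO libraries, 9.04 ± 0.466 against 6.37 ± 0.845 CPM (SD, n = 4 each), with a log2 fold of 0.50.

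Adjusted p-values here and below come from the quasi-likelihood test of edgeR, adjusted by Benjamini and Hochberg's method over 15075 genes, with a threshold of 0.05. Among the 8 other tested precursors, acetate without the inhibitor raised Cck and Sst and lowered Pdyn and Penk, 4 of 8 where 51.2% of all tested genes passed (23.7% higher and 27.5% lower). With the inhibitor 1 of 8 passed, Pdyn, which fell, against 35% of all tested genes (14.5% higher and 20.6% lower). The median log2 fold of the 8 was -0.41 without and -0.07 with the inhibitor, beside -0.03 and -0.03 over all tested genes. In each arm the share of precursors called, in either direction together, was no larger than the background. Without DMSO vehicle 1 and inhibitor vehicle 2 the counts were 6 of 8 and 4 of 8, in a fit that called 4269 genes higher and 4811 lower of 15232 without the inhibitor and 3434 higher and 4064 lower with it. Scaling on pan-neuronal markers, which lowers the median log2 fold of all genes to -0.69 and -0.50 in the 2 arms, gave 7 of 8 (1 higher and 6 lower) and 4 of 8 (all lower). In that fit 370 genes were called higher and 11503 lower of 15075 without the inhibitor, and 269 and 8987 with it.

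**Figure D2:**
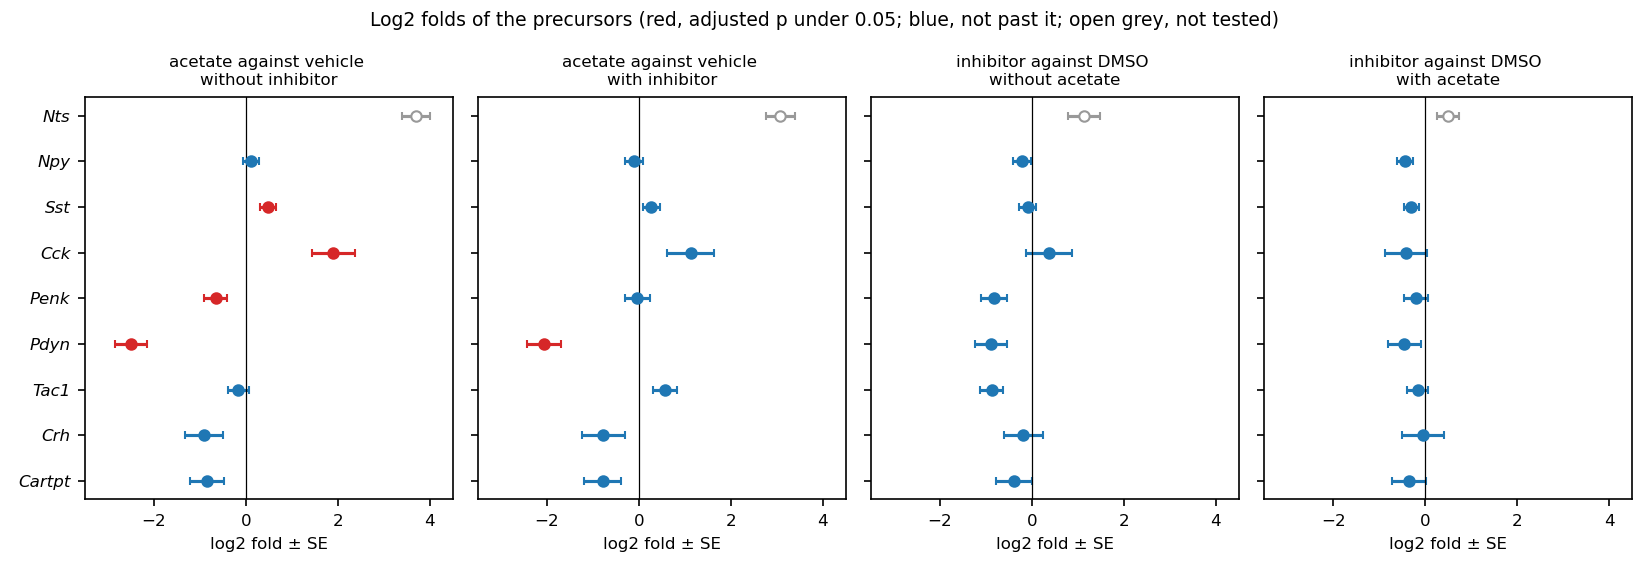
Log2 fold (horizontal axes) with its SE for the 9 precursors past the filter in the 4 two-group comparisons, with filled red points past an adjusted p of 0.05, filled blue points not past it and open grey points for Nts, which was not tested. Cck and Pdyn lie on opposite sides of 0 in both acetate panels, and none of the 8 tested genes passed in the inhibitor panels.

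Cck, on chromosome 9, encodes the precursor of cholecystokinin, made by a class of basket cells and by pyramidal neurons. It was 145, 45.8, 61.5 and 50.6 CPM in the DMSO vehicle libraries and 226, 324, 299 and 285 CPM in the DMSO acetate libraries. It was 47.4, 211 and 35.3 CPM in the inhibitor vehicle libraries and 227, 212, 211 and 203 CPM in the inhibitor acetate libraries. Without the inhibitor the groups did not overlap and Cck rose with a log2 fold of 1.91 (SE 0.47, adjusted p = 0.00369), or 3.75-fold. With the inhibitor the log2 fold was 1.12 (SE 0.51, adjusted p = 0.0974), and inhibitor vehicle 2 lay among the acetate libraries. Without inhibitor vehicle 2 that fold was 2.37 (adjusted p = 0.000185), and without DMSO vehicle 1 it also passed (adjusted p = 0.0485). DMSO vehicle 1 is not in this contrast and enters it through the shared estimate of spread. The 2 vehicle libraries with the most Cck, DMSO vehicle 1 and inhibitor vehicle 2, are those with the fewest microglia marker counts and the highest pan-neuronal marker means among vehicle libraries (8.15 and 8.17, against 7.68 to 7.77 in the other 5). Whether Cck follows the makeup of the culture was not tested.

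Sst, on chromosome 16, encodes somatostatin, the peptide of dendrite-targeting interneurons. It was 148, 205, 233 and 237 CPM in the DMSO vehicle libraries and 293, 350, 259 and 244 CPM in the DMSO acetate libraries. The groups did not overlap, and Sst rose with a log2 fold of 0.48 (SE 0.17, adjusted p = 0.0282). The call was lost without DMSO vehicle 1 (0.34, adjusted p = 0.0780), DMSO vehicle 2 (adjusted p = 0.0620), DMSO acetate 1 (adjusted p = 0.0554) or DMSO acetate 2 (adjusted p = 0.102), and scaling on pan-neuronal markers turned the fold to -0.20 (adjusted p = 0.333). With the inhibitor the libraries ranged from 180 to 214 CPM with vehicle and from 172 to 278 CPM with acetate, a log2 fold of 0.27 (SE 0.18, adjusted p = 0.267).

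Npy, on chromosome 6, encodes neuropeptide Y, carried by neurogliaform and other interneurons. It ranged from 37.7 to 63.3 CPM in DMSO vehicle, 52.3 to 65.8 CPM in DMSO acetate, 34.5 to 51.0 CPM in inhibitor vehicle and 29.9 to 50.8 CPM in inhibitor acetate. The log2 fold with acetate was 0.12 (SE 0.18, adjusted p = 0.592) without the inhibitor and -0.11 (SE 0.19, adjusted p = 0.689) with it. With the pan-neuronal scaling Npy was lower with acetate in both arms, by a log2 fold of -0.56 (adjusted p = 0.0365) and -0.62 (adjusted p = 0.0414). Vip, on chromosome 10, encodes vasoactive intestinal peptide of interneurons that target other interneurons, and it was counted 1 to 13 times per library. It had at most 3 counts in 11 of 15 libraries, so no fold is given and a difference was not detectable at this depth.

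Pdyn, on chromosome 2, encodes prodynorphin, the source of dynorphin peptides that act on the kappa opioid receptor. It was 25.4, 53.1, 43.1 and 46.6 CPM in the DMSO vehicle libraries and 7.74, 7.71, 7.59 and 6.65 CPM in the DMSO acetate libraries. It was 23.6, 7.70 and 36.5 CPM in the inhibitor vehicle libraries and 5.14, 6.38, 5.84 and 4.41 CPM in the inhibitor acetate libraries. The groups did not overlap in either arm, and the acetate libraries were within a narrow range.

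Pdyn fell by 2.5 on the log2 scale without the inhibitor (SE 0.34, adjusted p = 7.68e-05), or 5.65-fold, and by 2.06 with it (SE 0.37, adjusted p = 0.00129), or 4.17-fold. The calls held in each fit that left out 1 library, with folds of -2.69 to -2.38 and -2.46 to -1.52. DMSO vehicle 1 and inhibitor vehicle 2, low in microglia markers, had less Pdyn than the rest of their groups, the opposite of Cck, except that inhibitor vehicle 1 at 23.6 CPM was as low as DMSO vehicle 1. The part of the culture's makeup in the fall was not tested.

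Penk, on chromosome 4, encodes proenkephalin, the source of the enkephalins that act on the delta and mu opioid receptors. It was 4.97, 11.9, 11.7 and 10.5 CPM in the DMSO vehicle libraries and 6.77, 6.63, 5.06 and 6.22 CPM in the DMSO acetate libraries. DMSO vehicle 1 lay below all acetate libraries, so the groups overlapped. Penk fell by 0.66 on the log2 scale without the inhibitor (SE 0.25, adjusted p = 0.0391). The call was lost without DMSO vehicle 2, 3 or 4 or without any 1 of the 4 DMSO acetate libraries, at adjusted p-values of 0.0548 to 0.106, and with the replicate number as a block (-0.60, adjusted p = 0.0710). It held without DMSO vehicle 1. Over the fits that left out 1 library the fold ranged from -0.89 to -0.56, with a lowest adjusted p of 0.00119. With the inhibitor, vehicle libraries of 4.10 to 7.53 CPM and acetate libraries of 4.48 to 6.70 CPM gave a log2 fold of -0.03 (SE 0.28, adjusted p = 0.939). In GENCODE M21 an exon of Penk overlaps the antisense gene A830012C17Rik, and whether strand was used in counting is not given in the sources used here.

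Tac1, on chromosome 6, encodes the tachykinins substance P and neurokinin A. It was 6.02, 11.5, 10.4 and 12.1 CPM in the DMSO vehicle libraries, 10.4, 10.4, 7.91 and 7.14 CPM in the DMSO acetate libraries, 3.82, 6.88 and 5.63 CPM in the inhibitor vehicle libraries and 6.14, 8.86, 7.33 and 9.85 CPM in the inhibitor acetate libraries. The groups overlapped in both arms. The log2 fold with acetate was -0.16 (SE 0.23, adjusted p = 0.580) without the inhibitor and 0.56 (SE 0.26, adjusted p = 0.102) with it. The second passed without DMSO vehicle 1 (adjusted p = 0.0410) or without inhibitor vehicle 2 (0.76, adjusted p = 0.0390). Of these, DMSO vehicle 1 is not in that contrast and enters it through the shared estimate of spread.

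Cartpt, on chromosome 13, encodes the CART peptides. It was 4.21, 17.6, 17.8 and 18.1 CPM in the DMSO vehicle libraries, 9.68, 11, 6.09 and 5.14 CPM in the DMSO acetate libraries, 10.9, 8.70 and 13.2 CPM in the inhibitor vehicle libraries and 4.66, 7.02, 5.38 and 8.28 CPM in the inhibitor acetate libraries. In the DMSO arm 3 vehicle libraries were close together and above all acetate libraries, and DMSO vehicle 1 was below them all. The log2 fold was -0.84 (SE 0.37, adjusted p = 0.0664) without the inhibitor, and it passed without DMSO vehicle 1 (-1.16, adjusted p = 0.000909) and with DESeq2 (adjusted p = 0.0396). With the inhibitor the groups did not overlap, and the log2 fold was -0.79 (SE 0.40, adjusted p = 0.137). That fold passed without DMSO vehicle 1 (adjusted p = 0.0196), which is not in this contrast and enters it through the shared estimate of spread.

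Crh, on chromosome 3, encodes corticotropin-releasing hormone, which starts the hormonal stress response in the hypothalamus and is made in some hippocampal interneurons. It was near the counting limit, with 2 to 20 counts and 0.0900 to 0.739 CPM per library. Its log2 fold with acetate was -0.91 (SE 0.41, adjusted p = 0.0776) without the inhibitor, and -0.77 (SE 0.47, adjusted p = 0.213) with it. Without DMSO vehicle 1 the first passed (adjusted p = 0.0477).

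The difference of the acetate responses, with the inhibitor minus without it, asks whether ACSS2 inhibition changes what acetate does. None of the 8 tested precursors passed (edgeR, 0 also at an unadjusted p under 0.05, and 0 with DESeq2, which gave no adjusted p for Cck and Crh), where 0.0199% of all tested genes did (0.0133% higher and 0.00663% lower). At an unadjusted p under 0.05 edgeR had 3113 of all 15075 tested genes. The lowest p of the 8 precursors was that of Tac1, with a difference of 0.72 on the log2 scale (95% interval -0.01 to 1.45, adjusted p = 0.248). For Cck it was -0.78 (95% interval -2.20 to 0.64, adjusted p = 0.549) and for Pdyn 0.44 (-0.61 to 1.49, adjusted p = 0.661). These intervals are too wide to show that the responses were alike. In the fit without DMSO vehicle 1 and inhibitor vehicle 2, 1 of 8 passed, Tac1 at 1.09 (adjusted p = 0.0334). That fit called 237 genes higher and 417 lower of 15232 for the difference.

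The inhibitor alone, compared with DMSO in vehicle cultures, gave 0 of the 8 tested precursors past the threshold (edgeR, 3 at an unadjusted p under 0.05), against 5.46% of all tested genes (3.47% higher and 1.99% lower). Over all 15075 tested genes, 3833 had an unadjusted p under 0.05. The 3 precursors were Tac1, Penk and Pdyn, with log2 folds of -0.88 (SE 0.26, adjusted p = 0.0560), -0.82 (SE 0.28, adjusted p = 0.0839) and -0.89 (SE 0.35, adjusted p = 0.131). DESeq2 called 2, Tac1 (adjusted p = 0.0138) and Penk (adjusted p = 0.0362), beside 971 genes higher and 700 lower of 15075. Tac1 passed without DMSO vehicle 1 (adjusted p = 0.0172), Penk without DMSO vehicle 1 (adjusted p = 0.0167) or inhibitor vehicle 3 (adjusted p = 0.0324), and Pdyn without inhibitor vehicle 3 (-1.42, adjusted p = 0.0249). Without both DMSO vehicle 1 and inhibitor vehicle 2 those 3 genes passed, at -1.26, -0.87 and -0.66 (adjusted p = 0.00289, 0.0142 and 0.0180). That fit called 413 genes higher and 396 lower of 15232.

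With acetate in both groups, the inhibitor also gave 0 of 8 (edgeR, 1 at an unadjusted p under 0.05, and 0 with DESeq2), against 5.78% of all tested genes (2.36% higher and 3.42% lower). Over all 15075 tested genes, 3315 had an unadjusted p under 0.05. Among the precursors Npy had such a p: the inhibitor libraries, at most 50.8 CPM, all lay below the DMSO libraries, at least 52.3 CPM, and the log2 fold was -0.44 (SE 0.18, adjusted p = 0.152). Cck and Pdyn differed by -0.41 (SE 0.45, adjusted p = 0.661) and -0.45 (SE 0.35, adjusted p = 0.500), and the Pdyn libraries did not overlap. When only these 8 libraries were fitted, or when DMSO vehicle 1 and inhibitor vehicle 2 were left out, 3 of 8 passed in each case: Npy, Cck and Pdyn, lower with the inhibitor. Those fits also called more of all genes, 1201 higher and 1487 lower of 13996, and 1050 and 1637 of 15232. The wide spread of Cck and Pdyn in the vehicle libraries enters the fit of all 15.

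**Figure D3:**
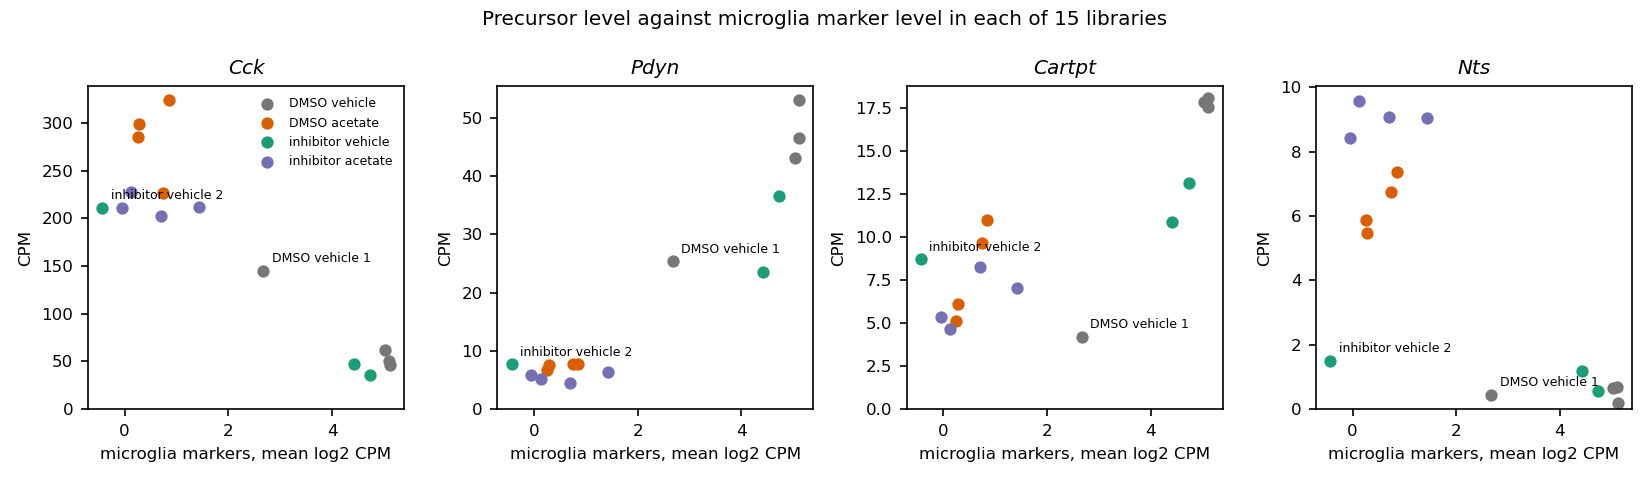
CPM of Cck, Pdyn, Cartpt and Nts (vertical axes, starting at 0) against the mean log2 CPM of 15 microglia markers (horizontal axes) in each of the 15 libraries, coloured by group, with DMSO vehicle 1 and inhibitor vehicle 2 named. On the marker axis DMSO vehicle 1 (2.67) lies between the other vehicle libraries and the acetate libraries, and inhibitor vehicle 2 (-0.43) lies at the acetate end. Inhibitor vehicle 2 also lies among the acetate libraries in Cck and Pdyn, while in Nts both named libraries lie with the vehicle libraries.

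Among genes with a mean of at least 1 CPM (13542 genes), those whose profile over the 15 libraries lay closest to Nts were Nrsn2, AF357425, Mdga1, Fam131c and Hif3a. Closeness was the root mean square difference of log2 CPM after centring each gene, from 0.52 for Nrsn2 to 0.77 for Hif3a, beside a spread of 1.78 for Nts itself. Nrsn2 went from 1.42 to 9.15 CPM with acetate without the inhibitor and from 2.61 to 12.9 CPM with it. Closest to Cck were Hpca (0.23) and Lmo1 (0.28), with a spread of 1.11 for Cck, and closest to Pdyn were Cfap52 (0.23) and Cdk6 (0.27), with a spread of 1.26. For Sst they were Crip3 and Aprt, for Npy Emx1 and Tspan4, for Penk Sfrp2 and Spock3, for Tac1 Hs3st2 and Nhlh2, for Crh Dbil5 and Ptges3l, and for Cartpt Pcdh11x and P4ha2. These are descriptions of the same libraries, with no test.

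Beyond the 10 precursors, 20 of 43 other precursor genes passed the filter, from a list made with earlier results of these data known. Of these 2 rose and 7 fell with acetate without the inhibitor, and 0 rose and 9 fell with it, with median log2 folds of -0.72 and -1.07 beside -0.03 and -0.03 over all tested genes. That is 9 of 20 called in each arm, where 51.2% and 35% of all tested genes were. Scaled on pan-neuronal markers the split was 0 higher and 15 lower without the inhibitor and 0 and 13 with it, and without DMSO vehicle 1 and inhibitor vehicle 2 it was 2 and 12, and 2 and 13, of 22 tested. Genes named from this and the other pathway lists are those with the smallest p over the 5 comparisons. Their p-values therefore do not describe the lists. Adm, the precursor of the vessel-widening peptide adrenomedullin, fell from 4.75 ± 0.689 to 0.635 ± 0.196 CPM (SD, n = 4 each), a log2 fold of -2.93 (SE 0.33, adjusted p = 2.32e-05), and by -2.72 (SE 0.35, adjusted p = 0.000198) with the inhibitor. Cort, which encodes the somatostatin relative cortistatin, rose from 7.25 ± 0.400 to 14.5 ± 2.03 CPM without the inhibitor (n = 4 each), a log2 fold of 1.0 (SE 0.17, adjusted p = 0.000347), and 0.34 (adjusted p = 0.0836) with the pan-neuronal scaling. Calca, the source of calcitonin gene-related peptide, fell in both arms, by -1.46 (SE 0.24, adjusted p = 0.000272) and -1.25 (SE 0.26, adjusted p = 0.00301).

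Vgf, an activity-regulated precursor of several peptides, fell from 439 ± 159 CPM (n = 3) to 164 ± 36.2 CPM (n = 4) with acetate under the inhibitor, a log2 fold of -1.42 (SE 0.22, adjusted p = 0.000639). Without the inhibitor it went from 629 ± 118 to 457 ± 43.8 CPM (-0.46, SE 0.21, adjusted p = 0.0737), a fold that passed without DMSO vehicle 2, inhibitor vehicle 1 or inhibitor vehicle 2 (lowest adjusted p = 0.0237). The inhibitor vehicle libraries are not in this contrast and enter it through the shared estimate of spread. The difference between both responses of Vgf was -0.96 (SE 0.30, adjusted p = 0.0978). In acetate cultures Vgf was lower with the inhibitor than with DMSO by a log2 fold of -1.48 (SE 0.21, adjusted p = 0.00250). Nmb, the neuromedin B precursor, had a log2 fold with acetate of -0.12 (SE 0.12, adjusted p = 0.426) without the inhibitor and -0.85 (SE 0.13, adjusted p = 0.000690) with it, and a difference of -0.73 (SE 0.18, adjusted p = 0.0721). Adcyap1, the PACAP precursor, fell by -1.34 (SE 0.47, adjusted p = 0.0269) without the inhibitor and by -2.5 (SE 0.54, adjusted p = 0.00367) with it. The first of these calls was lost without DMSO vehicle 2, 3 or 4, without DMSO acetate 2, 3 or 4 (adjusted p = 0.0518 to 0.0713) and with the replicate block (adjusted p = 0.0571).

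Of the machinery that cuts, stores and releases peptides, 8 genes rose and 8 fell of 32 tested without the inhibitor (median log2 fold 0.04), and 8 rose and 5 fell with it (median 0.12). That is 16 of 32 and 13 of 32 called, beside 51.2% and 35% of all tested genes. Pcsk1n, the proSAAS inhibitor of prohormone convertase, rose from 458 ± 77.5 to 1007 ± 129 CPM without the inhibitor (n = 4 each), a log2 fold of 1.14 (SE 0.15, adjusted p = 5.63e-05). Pcsk2, a prohormone convertase, rose from 67.2 ± 9.01 to 95.5 ± 3.44 CPM (0.51, SE 0.09, adjusted p = 0.000302), and in acetate cultures it was lower with the inhibitor than with DMSO (-0.54, SE 0.09, adjusted p = 0.00359). Hid1, which acts in dense-core vesicle formation, rose in both arms, by 0.60 (SE 0.10, adjusted p = 0.000347) and 0.54 (SE 0.11, adjusted p = 0.00311). Pam, which adds the terminal amide that many peptides need, fell from 97.9 ± 6.57 to 55.2 ± 4.19 CPM with acetate (-0.83, SE 0.13, adjusted p = 0.000176), and the inhibitor alone lowered it to 58.6 ± 15.4 CPM (n = 3; -0.74, SE 0.14, adjusted p = 0.0136), a call lost in a fit of the vehicle libraries alone (adjusted p = 0.229) and with the pan-neuronal scaling (adjusted p = 0.112). Cpd, a carboxypeptidase that trims peptides, fell by -0.21 (SE 0.06, adjusted p = 0.00960) without the inhibitor and rose by 0.22 (SE 0.07, adjusted p = 0.0185) with it, though the second call was lost without inhibitor vehicle 1 (adjusted p = 0.0807) and the difference missed the threshold (0.43, adjusted p = 0.0719). Cpz, a carboxypeptidase with the lowest level of these, fell by -2.59 (SE 0.49, adjusted p = 0.000629) and -1.94 (SE 0.52, adjusted p = 0.0113), the second lost without inhibitor vehicle 1 (adjusted p = 0.0680) or 3 (adjusted p = 0.0511). Scaled on pan-neuronal markers the split of this list was 3 higher and 22 lower without the inhibitor and 1 higher and 14 lower with it (10 and 9, and 10 and 6, of 33 without DMSO vehicle 1 and inhibitor vehicle 2), and the folds of Pcsk2 and Hid1 without the inhibitor turned to -0.12 and -0.06.

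Of 27 receptors for the 10 genes' peptides 19 were tested, and 6 rose and 5 fell without the inhibitor while 8 rose and 3 fell with it (medians 0.02 and 0.27), 11 of 19 called in each arm beside 51.2% and 35% of all tested genes. Npy2r, a presynaptic neuropeptide Y receptor, rose from 0.373 ± 0.143 to 1.44 ± 0.259 CPM (n = 4 each; 1.93, SE 0.30, adjusted p = 0.000173) without the inhibitor, and from 0.999 ± 0.398 (n = 3) to 2.66 ± 0.387 CPM (n = 4; 1.42, SE 0.30, adjusted p = 0.00320) with it. Tacr3, the neurokinin B receptor, rose in both arms, by 1.0 (SE 0.17, adjusted p = 0.000295) and 0.85 (SE 0.18, adjusted p = 0.00351). Tacr1, the substance P receptor, was 4.41 ± 0.298 CPM with acetate and DMSO and 8.55 ± 0.905 CPM with acetate and the inhibitor (n = 4 each), a log2 fold of 0.95 (SE 0.17, adjusted p = 0.00842). Sort1, the sorting receptor sortilin that also binds neurotensin, fell without the inhibitor by -0.54 (SE 0.10, adjusted p = 0.000645), and Vipr1, a receptor of vasoactive intestinal peptide, by -0.78 (SE 0.18, adjusted p = 0.00284). With the pan-neuronal scaling the split was 3 higher and 11 lower without the inhibitor and 3 higher and 6 lower with it, and without DMSO vehicle 1 and inhibitor vehicle 2 it was 7 and 7, and 7 and 5.

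**Figure D4:**
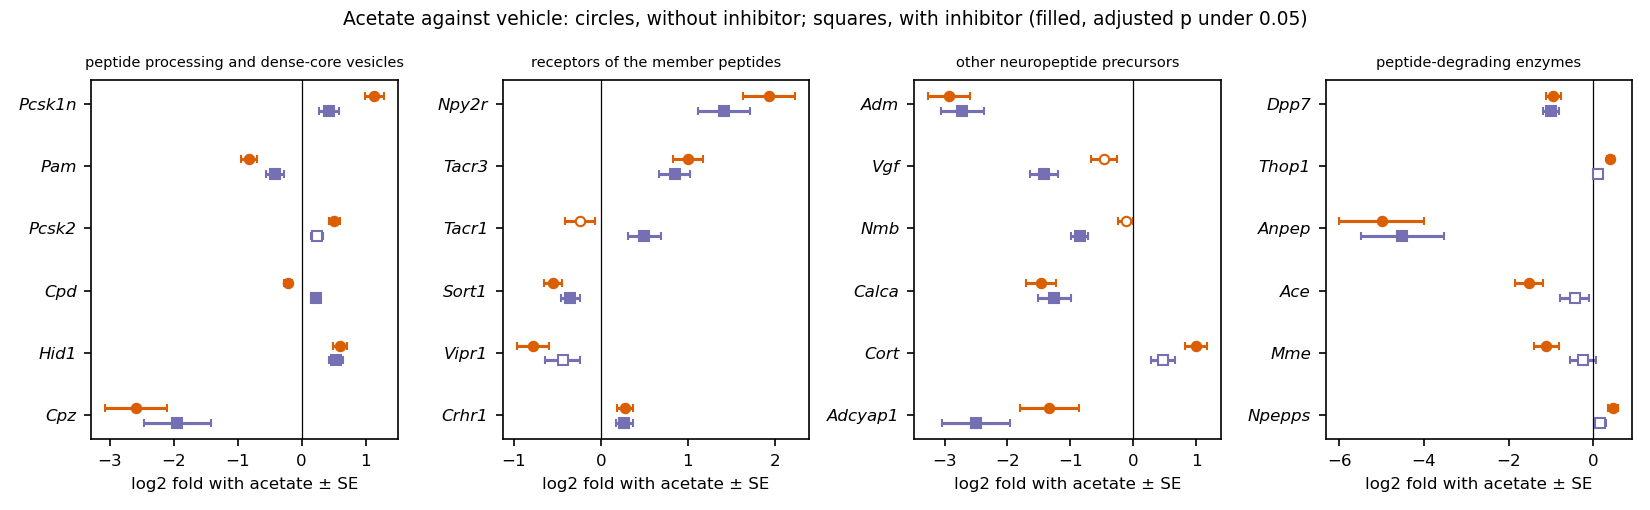
Log2 fold with acetate and its SE (horizontal axes) for 6 genes from each of 4 lists around the peptide pathway, with circles for cultures without the inhibitor and squares for cultures with it, filled where the adjusted p was under 0.05. Pcsk1n, Npy2r, Tacr3 and Hid1 lie above 0 and Adm, Calca, Pam and Dpp7 below 0 in both arms.

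Of 14 tested peptide-degrading enzymes 2 rose and 5 fell without the inhibitor, and 1 rose and 2 fell with it (medians -0.19 and -0.06), 7 and 3 called where the background was 51.2% and 35%. The split was 0 higher and 12 lower, and 0 and 11, with the pan-neuronal scaling, and 2 and 6, and 2 and 5, without DMSO vehicle 1 and inhibitor vehicle 2. Anpep, aminopeptidase N, went from 21.9 ± 12.8 to 0.673 ± 0.150 CPM without the inhibitor (n = 4 each; -4.99, SE 1.0, adjusted p = 0.000988), and Dpp7, a dipeptidyl peptidase, from 44.1 ± 10.5 to 22.9 ± 2.34 CPM (-0.94, SE 0.18, adjusted p = 0.000629). Of the transcription factors of cAMP and activity signalling, 26 tested, 4 rose and 12 fell without the inhibitor and 2 rose and 10 fell with it (medians -0.20 and -0.25), 16 and 12 called beside 51.2% and 35% of all tested genes. Atf3, a stress-induced factor, fell from 18.2 ± 8.71 to 1.22 ± 0.201 CPM (n = 4 each; -3.87, SE 0.51, adjusted p = 6.10e-05), and Fos, the early-response AP-1 subunit, from 18.9 ± 3.98 to 5.74 ± 1.05 CPM (-1.73, SE 0.27, adjusted p = 0.000179). Crtc1, a CREB coactivator, rose from 187 ± 12.1 to 263 ± 29.5 CPM (0.49, SE 0.09, adjusted p = 0.000382), which the pan-neuronal scaling turned to -0.16. Without DMSO vehicle 1 and inhibitor vehicle 2 these factors split 6 higher and 11 lower without the inhibitor and 6 higher and 13 lower with it, and with the pan-neuronal scaling 1 higher and 20 lower, and 0 and 17.

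GABAergic neurons, classes of which are marked by Sst, Npy, Vip and Cck in the hippocampus, were compared through a list of 32 markers. Of these 6 rose and 6 fell without the inhibitor and 6 rose and 5 fell with it (medians -0.07 and 0.10), 12 and 11 called where the background was 51.2% and 35%. The split was 1 higher and 21 lower, and 1 and 14, with the pan-neuronal scaling, and 9 and 12, and 10 and 9, without DMSO vehicle 1 and inhibitor vehicle 2. The summed level of that list was 869 to 972 CPM in DMSO vehicle, 1034 to 1148 CPM in DMSO acetate, 760 to 1018 CPM in inhibitor vehicle and 1046 to 1112 CPM in inhibitor acetate. Excitatory neuron markers, 37 tested, split 19 higher and 3 lower without the inhibitor and 11 higher and 2 lower with it (medians 0.38 and 0.22), 22 and 13 called against the same background. With the pan-neuronal scaling that split turned to 7 higher and 16 lower without the inhibitor and 5 and 16 with it (medians -0.28 and -0.23), and without DMSO vehicle 1 and inhibitor vehicle 2 it was 21 and 6, and 19 and 7. All 14 pan-neuronal markers had counts in every library, and so did astrocyte markers. The median summed level was 5463 CPM for pan-neuronal and 11489 CPM for astrocyte markers in DMSO vehicle, and 10494.5 and 5078 CPM in DMSO acetate. With the inhibitor it was 5822 and 12530 CPM in vehicle, and 9475 and 4604 CPM with acetate. Tubb3, a neuronal tubulin, was at 1388 ± 486 CPM in DMSO vehicle (n = 4), beside Gfap, the astrocyte filament, at 7308 ± 3370 CPM in the same libraries. Gfap fell with acetate by -1.76 in both arms (SE 0.44, adjusted p = 0.00390 without the inhibitor, and SE 0.46, adjusted p = 0.00953 with it).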

How the data were processed

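Per the labels, RNA was sequenced from directional libraries of total RNA. Per the submitters' processing notes, the authors used STAR 2.5.2a, HTSeq 0.6.1p1, DESeq2 and mm10; the annotation is not given in the sources used here, nor are counting mode and strand use. The deposited values are whole-number counts per gene. The 5 summary lines (38.9% to 47.4% of each column) were left out.

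Genes were filtered with edgeR's filterByExpr, scaled by TMM and tested with edgeR 4.0.16 quasi-likelihood in R 4.3.3, in 1 fit of all 15 libraries, with a threshold of 0.05 after Benjamini-Hochberg adjustment. Log2 CPM used a prior count of 2. DESeq2 1.42.0, other scalings, no filter, subsets of libraries and a replicate block were alternatives. The edgeR fit with TMM scaling was tested on simulated counts, for acetate against vehicle without the inhibitor only. The members and lists were chosen with earlier results of these data known. Named were all 10 precursors, up to 6 genes of each pathway list by smallest p over the 5 comparisons, up to 3 of each cell type list by mean CPM, and the genes closest in profile. List counts and list genes under the alternatives were added after seeing the data. Nts was left out of the counts of calls in every comparison, since all of them share libraries with its choice. Intervals use the quasi-likelihood test's degrees of freedom and cover the spread between these libraries only.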

Additional observations from a re-analysis of the deposited data

Results flagged for a closer look

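In 30 groups of 4 libraries, 3 precursor values lay far from the rest of their group, by a gap that chance gives in about 1 of 20 groups. Cck in DMSO vehicle 1 was 145 CPM, with the other 3 libraries at 45.8 to 61.5 CPM. Cartpt in DMSO vehicle 1 was 4.21 CPM, with the others at 17.6 to 18.1 CPM. Pdyn in DMSO acetate 4 was 6.65 CPM, with the others at 7.59 to 7.74 CPM, a small gap in a tight group.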

How the results depend on the processing

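The count of precursors called was 4 of 8 for acetate without the inhibitor, and 7 with scaling on pan-neuronal markers. With the inhibitor it was 1 of 8, and 4 with that scaling, 2 with only the groups compared, and 4 without DMSO vehicle 1 and inhibitor vehicle 2. Without these 2 libraries it was also 1 instead of 0 for the difference, 3 instead of 0 for the inhibitor without acetate (2 with DESeq2) and 3 instead of 0 for the inhibitor with acetate (3 with only the groups compared). Of 15232 genes, the fit without these 2 libraries called 237 higher and 417 lower, 413 and 396, and 1050 and 1637, in that order. Leaving out each library in turn gave 2 to 5, 1 to 4, 0 to 0, 0 to 2 and 0 to 0 calls in the 5 comparisons. Pdyn with acetate and Cck without the inhibitor kept their direction and their call in every alternative that gave an adjusted p; DESeq2 gave none for Cck in any comparison, nor for Crh in the difference and the 2 inhibitor comparisons. Over all genes, DESeq2 called 266 higher and 752 lower in the difference of responses (edgeR 2 and 1), 591 and 880 for the inhibitor with acetate (edgeR 356 and 515) and 971 and 700 without it (edgeR 523 and 300); the cause was not tested. Fits of only the groups compared called 0 genes for the inhibitor without acetate and 1201 and 1487 with it. The pan-neuronal scaling called 370 higher and 11503 lower for acetate without the inhibitor and 269 and 8987 with it, against 3575 and 4139, and 2180 and 3103.

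With that scaling Npy reversed to -0.56 and Sst to -0.20 without the inhibitor. So did Pcsk2 (-0.12), Hid1 (-0.063), Crhr1 (-0.36), Thop1 (-0.25), Npepps (-0.17), Crtc1 (-0.16) and Atf2 (-0.24). With the inhibitor it turned Pcsk1n to -0.018, Cpd to -0.26, Crhr1 to -0.20, Thop1 to -0.37, Npepps to -0.29, Crtc1 to -0.088 and Atf2 to -0.12. Their folds were above 0 before.

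Libraries with the same replicate number did not stand out as pairs: in 21 such pairs the correlation of deviations from the group mean was -0.65 to 0.38, over 0.1 in 6, and 2 of 15 libraries correlated best with their own number. This cannot exclude shared preparations, since DMSO vehicle 1 and inhibitor vehicle 2 stood apart from their groups and correlated at 0.74 with each other. With the replicate block the Penk call without the inhibitor was lost (-0.60, adjusted p = 0.0710) and no other precursor call changed; over all genes the block called 234 higher and 282 lower for the inhibitor with acetate, and 321 and 203 without it. Vip, Crh and vehicle Nts are limited by counts.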
